A study of Mus musculus with 9 samples.

Results

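The mitotic genes examined here are 33 named genes of G2 and M phase, that is, the genes whose products condense, attach and separate the chromosomes and divide the cell. They were taken by symbol, using each probe set that the platform annotation gives to exactly 1 of them. All 33 were measured, by 66 probe sets, of 15964 genes named on the arrays. The RNA came from C2C12, an established line of mouse skeletal myoblasts, after 5 days in differentiation medium (DMEM with 2% horse serum, at 37 °C). It was hybridised to 9 Affymetrix oligonucleotide arrays, 3 each of the designs U74Av2, U74Bv2 and U74Cv2, which carry different probe sets. There was 1 condition, shared by all arrays, with no growing cells beside it, so the arrays show which transcripts gave signal and not which of them changed. Separate cultures are not stated for the replicates. The p-values therefore measure only the spread between these arrays, in signal and in the background limit defined below. That spread may be technical.

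Mitosis is driven by cyclin-dependent kinase 1 bound to cyclins A and B, together with the Aurora and Polo kinases. The spindle checkpoint holds back the anaphase-promoting complex until all chromosomes are attached, and the complex then marks cyclins and other mitotic proteins for destruction. Many of the genes are switched on late in the cycle through CCAAT boxes and through an element called the cell cycle genes homology region (CHR). In resting cells they are repressed through the CHR by the DREAM complex. When serum is lowered, C2C12 myoblasts leave the cycle and fuse into myotubes, while some mononucleate cells stay unfused. The arrays measured whole cultures, in which few cells with much of a transcript and many cells with little of it cannot be told apart.

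Signals are deposited MAS5 values on a linear scale, set to a common trimmed mean on each array. They are given here also as multiples of the array's background limit, the 95th percentile of controls whose target is missing from mouse RNA. The limit was 206 to 280 signal units on U74Av2, 430 to 963 on U74Bv2 and 725 to 1034 on U74Cv2. It rests on 20, 20 and 17 controls, and on U74Bv2 the array of replicate 3 stood apart with the limit of 963. Signal also depends on the affinity of the probes, so genes are not ranked by it. As a check of the cell type, all 10 markers of differentiated skeletal muscle lay above the limit on all 3 arrays, among them Acta1 at 298 ± 31 times and Myog at 66.7 ± 11.7 times (SD, n = 3). All 8 markers of undifferentiated myoblasts did so too, among them Sdc4, Hes1 and Id3, and 7 of them by limma. Of all genes 62.0% lay above the limit. Of the blood markers 0 of 4 did. Ptprc, Itgam and Cd3e lay at 0.131 to 0.657 times the limit, while Hba-a1, alpha globin, read 2.01, 0.696 and 2.47 times and passed on 2 of 3 arrays. Of the endothelial markers Pecam1 and Kdr did (neither by limma), and Cdh5 and Tek did not. Of the epithelial ones Epcam and Cdh1 did, both also by limma, and Krt5, Krt14 and Krt18 did not.

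Nearly all of the 33 mitotic genes gave signal above background in the differentiated cultures. At least 1 probe set lay above the limit on all 3 arrays for 32 of the 33 (97.0%), against 62.0% of all genes. The exception was Bub1. The members were chosen with earlier results of these data known, so their share does not stand for mitotic genes at large. Of 70 other mitotic genes measured, 39 passed (55.7%). By limma, which tests the mean log2 multiple of the limit against 0, 30 of 33 were called above it (adjusted p under 0.05), against 57.8% of all genes. The 3 not called were Bub1, Bub1b and Cenpf. Most of the signals were moderate. The median gene lay at 4.39 times the limit, between 2.74 times for all genes and 5.83 times for the genes above the limit. Only 4 of the 33 had a mean over 10 times. With the array's median signal in place of the limit, 26 of 33 passed on all 3 arrays, against 59.2% of all genes. Beside Bub1, the 6 that did not pass were Aurka, Nek2, Cenpf, Kif11, Kif23 and Mki67. The limit leaves out control families that read above the design's median, namely reverse-strand probe sets of abundant or spiked transcripts. With those kept it rose to between 1300 and 1719 on U74Av2, and 11 of 33 genes (33.3%) then passed, against 23.4% of all genes.

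**Figure D1:**
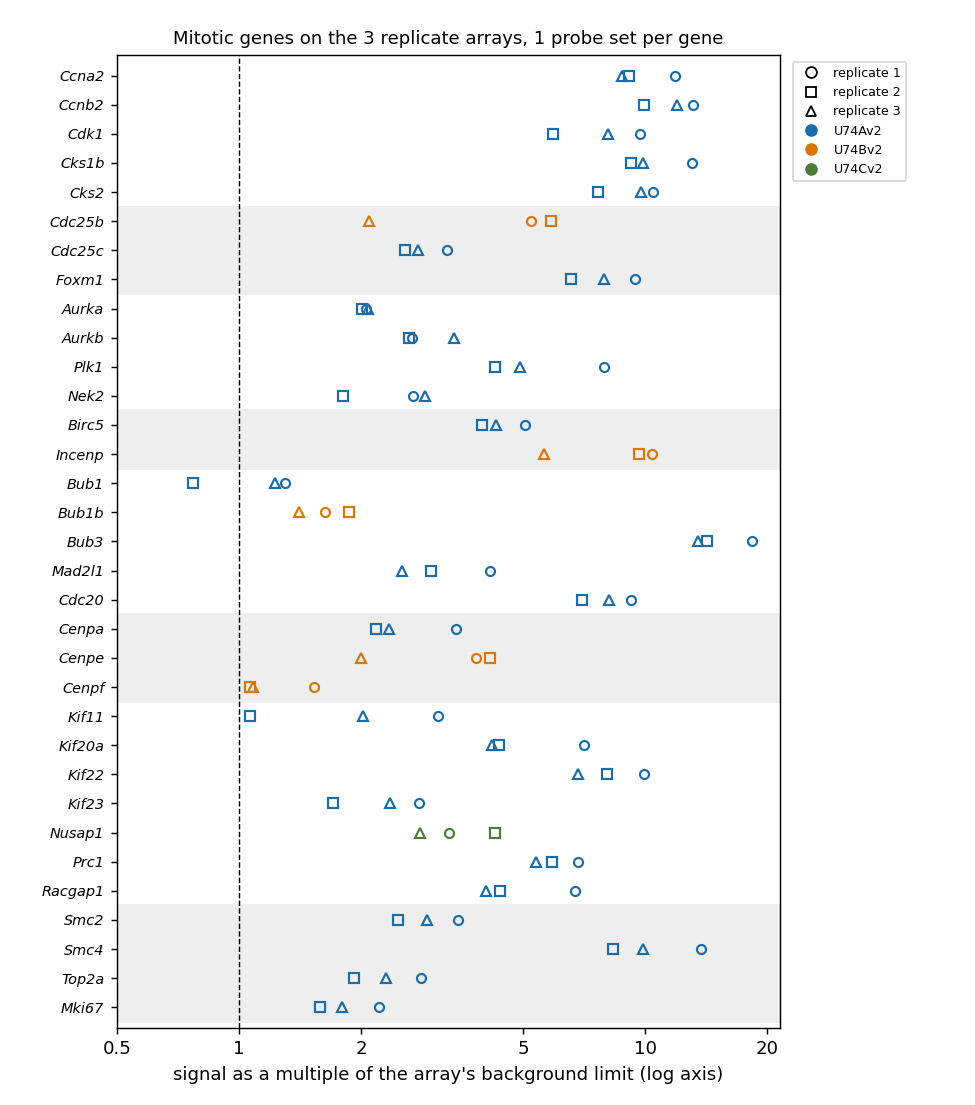
Signal of each of the 33 mitotic genes on the 3 replicate arrays as a multiple of the array's background limit (log axis, dashed line at the limit), for the probe set with the highest mean log2 multiple. Marker shape gives the replicate, colour the array design, and shading separates the roles in the order of the text. All genes but Bub1 lie above the limit on all 3 arrays, and Cenpf, Kif11 and Bub1b come close to it.

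Transcripts of CDK1 and of 4 of its binding partners lay above the limit on every array of U74Av2, as did 66.6% of all genes there. Ccnb2, a B-type cyclin that activates CDK1, had signals of 2706, 2789 and 3074 on the arrays of replicates 1, 2 and 3, which is 11.7 ± 1.6 times the limit (SD, n = 3). Ccna2, cyclin A2, read 2442, 2558 and 2249, or 9.92 ± 1.70 times the limit. Cdk1, the kinase itself, read 2004, 1665 and 2080, or 7.93 ± 1.91 times. These 3 genes lay at least 5.94 times above the limit on each array. The small CDK-binding proteins Cks1b and Cks2 lay at 10.7 ± 2.1 and 9.29 ± 1.46 times the limit. Each of the 5 genes has a single probe set, on U74Av2, with no suffix for possible cross-hybridisation. In limma their adjusted p ran from 4.23e-06 (Ccnb2) to 1.45e-05 (Cdk1).

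Regulators that start mitosis gave signal as well. Foxm1, a transcription factor that drives G2 and M phase genes, read 1948, 1841 and 2027 with its best probe set, or 7.98 ± 1.45 times the limit (SD, n = 3). That probe set carries the suffix g. Another on U74Av2 passed on 2 of 3 arrays only, and the one on U74Bv2 passed on all 3 but not in limma (adjusted p = 0.0544). Cdc25b, a phosphatase that activates CDK1 at entry into mitosis, read 2602, 2514 and 2013 on U74Bv2. Its multiples were 5.22, 5.85 and 2.09, the last being low because the limit of that array was high. Cdc25c, the related phosphatase, lay at 2.85 ± 0.36 times with a probe set of suffix s, while its probe set without a suffix stayed under the limit on all 3 arrays.

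The 4 mitotic kinases all lay above the limit and all passed in limma, with adjusted p from 5.54e-05 (Plk1) to 0.00283 (Aurka). Among all genes 62.0% lay above the limit and 57.8% passed in limma. Plk1, the Polo kinase of spindle and cytokinesis, read 1626, 1198 and 1262, or 5.70 ± 1.93 times the limit (SD, n = 3). It is measured by 3 probe sets, each with a cross-hybridisation suffix, and all 3 were above the limit. Aurkb, the kinase of the chromosomal passenger complex, read 548, 733 and 868, or 2.89 ± 0.43 times. Aurka, which acts at the spindle poles, read 423, 562 and 533, or 2.05 ± 0.0381 times, and was above the array's median signal on 1 array. Nek2, a kinase that separates the centrosomes, lay at 2.45 ± 0.57 times. The partners of Aurkb in the passenger complex were also present. Birc5, survivin, read 1041, 1111 and 1101, or 4.44 ± 0.56 times, and Incenp, the scaffold, lay at 8.58 ± 2.57 times the limit of U74Bv2.

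The spindle checkpoint holds both the exception and a gene far above the limit. Bub3, a binding partner of the Bub kinases, read 3774, 3976 and 3465, or 15.3 ± 2.6 times the limit (SD, n = 3, adjusted p = 2.83e-06, limma). Bub1, the checkpoint kinase, read 266, 216 and 314 with its best probe set, which is 1.29, 0.769 and 1.22 times the limit. It thus passed on replicates 1 and 3 and missed on replicate 2, and its other 2 probe sets lay at 0.0702 ± 0.0396 and 0.129 ± 0.154 times. Its mean did not differ from the limit by the limma test (adjusted p = 0.737). Without replicate 2, or with the 90th percentile of the controls as the limit, Bub1 passed as well. Bub1b, the checkpoint protein BubR1, read 812, 801 and 1354 on U74Bv2 and was above the limit on all 3 arrays, but did not pass in limma (adjusted p = 0.191), where it was called without replicate 3. Mad2l1, the checkpoint protein that binds Cdc20, lay at 3.21 ± 0.85 times. Cdc20, the activator of the anaphase-promoting complex that the checkpoint restrains, read 1894, 1957 and 2088, or 8.11 ± 1.11 times.

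The 3 kinetochore genes passed on all 3 arrays by at least 1 probe set, against 62.0% of all genes. Their multiples ran from 1.22 to 3.33. Cenpa, the histone H3 variant of centromeres, lay at 2.64 ± 0.68 times the limit (SD, n = 3, adjusted p = 0.00106, limma). Cenpe, a kinetochore motor, read 1915, 1780 and 1924 on U74Bv2, or 3.33 ± 1.16 times, while both of its probe sets on U74Av2 stayed under the limit. Its call in limma (adjusted p = 0.00118) was lost without replicate 1. Cenpf, a large kinetochore protein, read 761, 457 and 1044 on U74Bv2, or 1.22 ± 0.26 times. It passed on all 3 arrays by a narrow margin, 1.06 times at the lowest, and did not pass in limma (adjusted p = 0.629).

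Motors and midzone proteins all passed both rules with at least 1 probe set. Of all genes 62.0% lay above the limit by that rule, and 57.8% were called by limma. Only Kif20a among these motors and midzone proteins passed with every probe set. Kif22, a chromosome-bound kinesin, lay at 8.27 ± 1.56 times the limit, and Kif20a, a kinesin of the midzone, at 5.21 ± 1.61 times (SD, n = 3), both with probe sets that carry a suffix. Prc1, which bundles midzone microtubules, read 1407, 1655 and 1385, or 6.05 ± 0.73 times. Racgap1 and Kif23, which together form the centralspindlin complex, lay at 5.05 ± 1.45 and 2.27 ± 0.54 times. Nusap1, a spindle protein, lay at 3.44 ± 0.75 times the limit of U74Cv2 with a probe set of suffix f. Its probe set without a suffix, on U74Bv2, stayed under the limit at 0.278 ± 0.095 times. Kif11, the motor that pushes the spindle poles apart, read 637, 299 and 518, or 3.10, 1.07 and 2.02 times. Its array of replicate 2 was low, and its call in limma (adjusted p = 0.029) was lost without replicate 1 and without replicate 3.

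Genes of chromosome structure passed in 4 of 4 cases by at least 1 probe set, against 62.0% of all genes. Smc4, a core subunit of condensin, read 2832, 2338 and 2535, or 10.7 ± 2.8 times the limit (SD, n = 3). Its partner Smc2 reached 2.94 ± 0.50 times, and of its 5 probe sets 1 was above the limit. Top2a, the topoisomerase that untangles sister chromatids, read 576, 538 and 589, or 2.34 ± 0.44 times. Mki67, the proliferation marker Ki-67 that coats mitotic chromosomes, read 454, 442 and 460, or 1.86 ± 0.32 times (adjusted p = 0.00818, limma, and not called without replicate 3). That probe set carries the suffix r, and each array's median signal was higher, and the other probe set of Mki67 passed on 2 of 3 arrays.

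Several genes had probe sets on both sides of the limit. Of the 66 probe sets, 42 lay above the limit on all 3 arrays. By design these were 32 of 42 on U74Av2, 7 of 12 on U74Bv2 and 3 of 12 on U74Cv2, against 58.2%, 43.8% and 31.6% of all probe sets. By limma they were 32, 4 and 2, against 55.8%, 38.0% and 25.7%. As shares, limma called 76.2% of the members on U74Av2, 33.3% on U74Bv2 and 16.7% on U74Cv2, so the share lay above the background on U74Av2 and below it on the other designs. The limma count on U74Bv2 was 7 without replicate 3 and 2 without replicate 1. All 16 members with a single probe set passed, against 48.0% of all genes with 1. Of the 17 with several, 16 passed, against 77.1%, and in 13 of those 16 some probe sets passed while others did not (71.9% among all genes). If every probe set of a gene had to pass, 19 of 33 genes would (57.6%), against 35.4% of all genes. The members were chosen with earlier results of these data known, so these shares do not stand for mitotic genes at large.

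**Figure D2:**
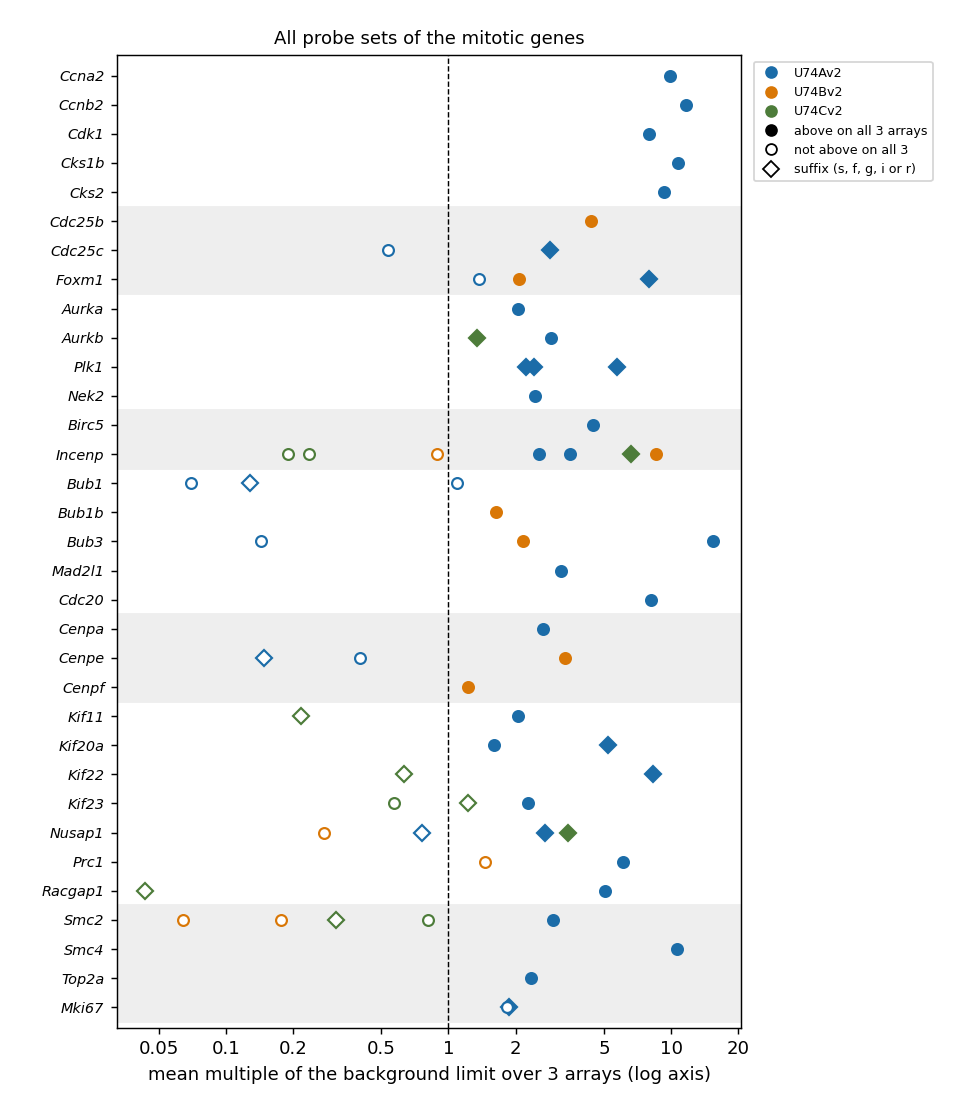
All 66 probe sets of the mitotic genes by their mean multiple of the background limit over 3 arrays (log axis, dashed line at the limit). Colour gives the design, filled markers lay above the limit on all 3 arrays, and diamonds carry a suffix (s, f, g, i or r). Incenp, Bub3, Smc2 and Racgap1 have probe sets on both sides of the limit.

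Incenp shows the extent of this, with 7 probe sets on the 3 designs, of which 4 were above the limit. On U74Bv2 one of them read 5195, 4159 and 5433, while another read 421, 427 and 789 and stayed under the limit on each array. On U74Cv2 one read 5334, 5132 and 5919, and the other 2 lay at 0.236 ± 0.0673 and 0.190 ± 0.0576 times the limit (SD, n = 3). For Bub3 the probe sets of U74Av2 read 3774, 3976 and 3465 in one case and 26.3, 33 and 48.4 in the other. A gene counted as present on its best probe set is therefore not present on every one. Of the 20 member probe sets with a suffix (s, f, g, i or r) 12 passed (60%), against 41.0% of all such probe sets. Of the 46 without one 30 did (65.2%), against 45.9%. Without the suffixed ones, 27 of 31 genes passed (87.1%), against 60.1% of all genes, and Cdc25c, Nusap1 and Mki67 were lost beside Bub1. The limit given above for the choice of the members holds for these shares too.

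The replicate arrays read the mitotic genes alike on U74Av2. The median SD of log2 signal over 3 arrays was 0.157 for the 32 member probe sets above the limit, and 0.154 for all 7225 such probe sets. It was 0.208 against 0.178 on U74Bv2, with 7 members, and 0.290 against 0.238 on U74Cv2, with 3. Without replicate 3 the members' medians were 0.0954 on U74Bv2 and 0.0734 on U74Cv2. Those are SDs over 2 arrays, so they cannot be set against the values over 3. The steadiest of the probe sets that represent the genes were those of Mki67 (SD 0.0295) and Cks1b (0.0444), and the most variable was that of Cenpf (0.602). As deviations from each probe set's own mean, the medians on U74Av2 were 0.02, -0.02 and 0.02 for replicates 1, 2 and 3. On U74Bv2 they were 0.09, -0.24 and 0.23, with 6 of 7 probe sets below their mean on replicate 2, against medians of 0.00, 0.01 and 0.00 over all probe sets above the limit. The 7 are few. Replicates 2 and 3 of that design, with the lowest and the highest median, were both run on fluidics station 2, and replicate 1 on station 1. The part of the station in this was not tested.

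**Figure D3:**
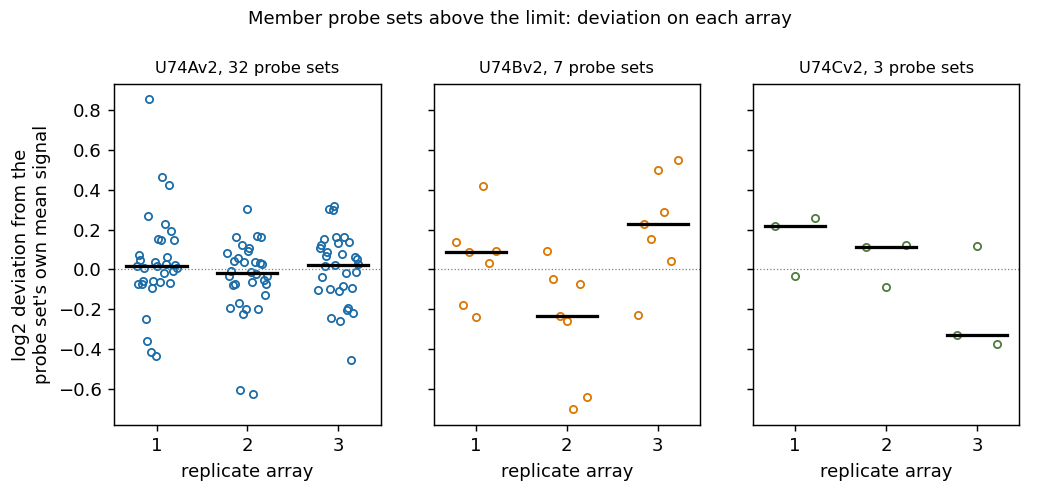
Deviation of each member probe set above the limit from its own mean log2 signal, by replicate array and design. Black bars are medians. The medians lie within 0.024 of 0 on U74Av2 (32 probe sets), and on U74Bv2 (7 probe sets) replicate 2 lies lowest at -0.24.

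The promoters of these genes share sequence features, which the choice by symbol did not use. RefSeq windows of 250 bases before to 50 after an annotated start (GRCm38.p6) were at hand for 26 of the 33 genes, and not for Ccna2, Cdc25c, Foxm1, Aurkb, Incenp, Kif20a and Smc4. The CHR was searched as TTTGAA or TTCGAA, and the CCAAT box as CCAAT, on both strands. TTCGAA is its own reverse complement and was counted once, and the motifs do not overlap. The CHR letters occurred in 20 of 26 genes (76.9%), against 21.7% of all 27025 genes with a window and 17.5% of the genes on the arrays. CCAAT occurred in 23 of 26 (88.5%), against 41.1% of all genes, and at least 2 copies in 14 (53.8%), against 13.3%. Both occurred in 20 of 26 genes (76.9%), against 8.61% of all genes. Every member with the CHR letters thus also held CCAAT, against 2328 of 5854 such genes among all genes. The median GC content of the windows was 58.0%, against 52.7% over all genes and 59% over the genes on the arrays. These are matches of letters, given as a description.

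The matches also lay in a common place. In 19 of 26 genes the CHR letters began within 50 bases of the start site (73.1%, against 6.12% of all genes). In 12 of 26 they began 20 to 45 bases downstream of the start of a CCAAT (46.2%, against 1.25%). That interval was chosen after the positions had been seen. The gap was 33 bases in Cdk1, 25 in Ccnb2, 24 in Cks1b and 35 in Cdc20. No CHR or CCAAT letters were found in the windows of Birc5, Mad2l1 and Nusap1, and CCAAT alone in those of Cks2, Cenpe and Nek2. The windows with both motifs include Bub1, the gene that was not above the limit on all arrays. The stretch from 110 bases before to 30 after the start is printed for 7 genes, in lower case with CHR and CCAAT letters of either strand in capitals. The first 4 show the arrangement in genes above the limit, Racgap1 has 1 copy of each, Bub1 is the exception in signal, and Nusap1 has neither motif. They lie at chr10:69352883-69353022 (Cdk1), chr9:70421525-70421664 (Ccnb2), chr3:89418262-89418401 (Cks1b), chr4:118437314-118437453 (Cdc20), chr15:99651627-99651766 (Racgap1) and chr2:127831830-127831969 (Bub1), each on the minus strand, and at chr2:119618188-119618327 (Nusap1) on the plus strand.
Cdk1: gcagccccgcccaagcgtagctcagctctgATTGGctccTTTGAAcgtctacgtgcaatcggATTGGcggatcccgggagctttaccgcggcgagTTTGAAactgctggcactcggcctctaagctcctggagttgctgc
Ccnb2: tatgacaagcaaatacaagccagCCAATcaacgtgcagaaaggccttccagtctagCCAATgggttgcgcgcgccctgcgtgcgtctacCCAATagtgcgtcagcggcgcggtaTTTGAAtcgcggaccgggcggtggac
Cks1b: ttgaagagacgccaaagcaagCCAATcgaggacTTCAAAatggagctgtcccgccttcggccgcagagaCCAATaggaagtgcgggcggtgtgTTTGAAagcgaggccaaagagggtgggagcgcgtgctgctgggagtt
Cdc20: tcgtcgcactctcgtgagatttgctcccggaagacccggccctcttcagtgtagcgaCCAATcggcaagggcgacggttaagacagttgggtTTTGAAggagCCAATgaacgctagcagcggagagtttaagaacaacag
Racgap1: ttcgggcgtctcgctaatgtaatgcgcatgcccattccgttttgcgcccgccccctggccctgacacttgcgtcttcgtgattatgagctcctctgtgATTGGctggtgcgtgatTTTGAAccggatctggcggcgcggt
Bub1: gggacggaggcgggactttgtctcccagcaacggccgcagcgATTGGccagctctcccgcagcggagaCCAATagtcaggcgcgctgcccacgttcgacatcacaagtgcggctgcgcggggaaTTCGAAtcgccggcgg
Nusap1: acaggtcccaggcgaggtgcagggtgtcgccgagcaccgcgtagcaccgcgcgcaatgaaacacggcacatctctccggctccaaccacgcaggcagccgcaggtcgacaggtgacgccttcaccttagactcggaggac

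**Figure D4:**
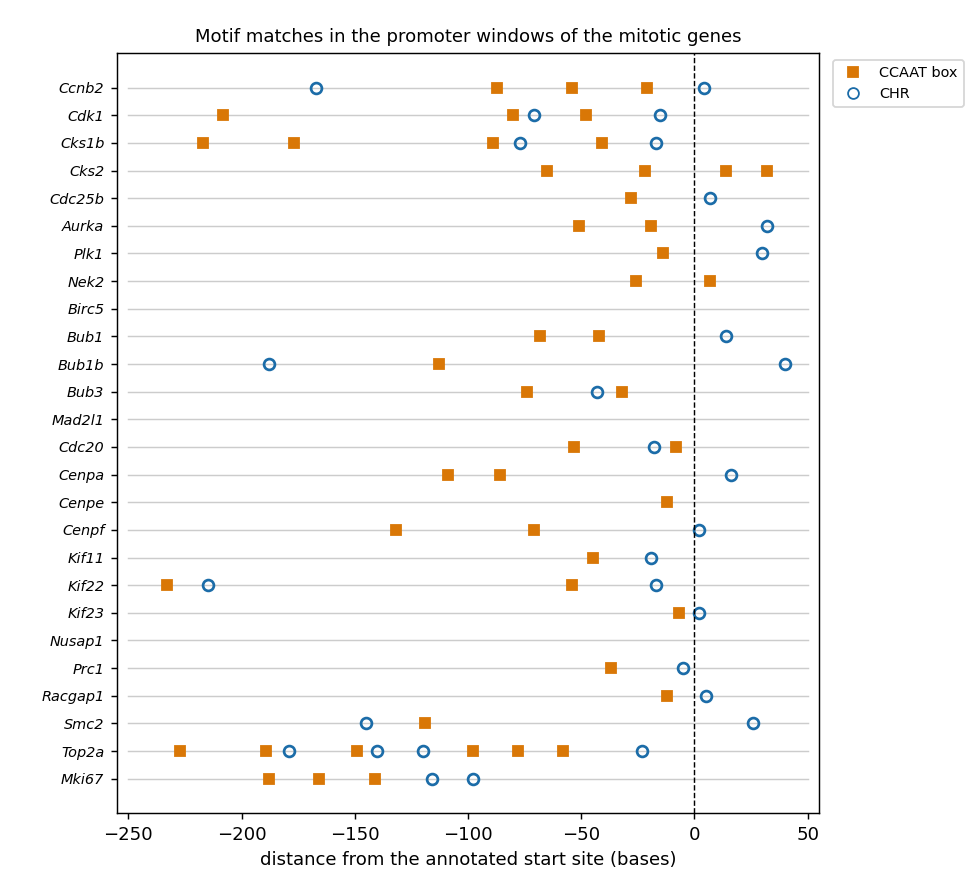
Position of CCAAT (squares) and CHR letters (circles) relative to the annotated start site in the promoter windows of 26 mitotic genes, 1 window per gene. In most genes the CHR letters lie within 50 bases of the start, and one or more CCAAT boxes lie upstream of them.

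Of 70 other mitotic genes measured, which are not among the 33, 39 passed (55.7%), near the 62.0% of all genes. Zwint, a kinetochore protein, lay at 30.9 ± 5.1 times the limit with a probe set of suffix s, and 3 of its 6 probe sets passed. Rad21, a cohesin subunit with 1 probe set and no suffix, lay at 30.4 ± 4.5 times (SD, n = 3). Stmn1, a microtubule regulator, lay at 23.6 times on replicate 1 and 16.3 times on replicate 2. The sets differ in the designs that carry them. By the probe sets of U74Av2, 28 of 30 members passed and 27 of 41 other mitotic genes did (65.9%), against 66.6% of all genes there. Of the other mitotic genes not on U74Av2, 10 of 29 passed (34.5%), against 51.6% of all such genes.

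Complexes came out in part. The non-SMC condensin subunits Ncapd2, Ncapg and Ncaph did not pass, at 0.209 ± 0.119, 0.680 ± 0.131 and 0.930 ± 0.33 times the limit of their designs (SD, n = 3), while Smc2 and Smc4 did. Of the outer kinetochore, Nuf2, Spc24, Spc25, Knl1, Nsl1 and Ska1 did not pass. Mis12 did, at 2.33 ± 0.74 times with a probe set of suffix f, and so did Ndc80, at 1.03, 1.54 and 1.02 times. In limma this probe set of Ndc80 was not called (adjusted p = 0.519). Of the kinesins, Kif15, Kif18a, Kif20b and Kifc1 did not pass, while Kif2c, Kif4 and Kif14 did, at 2.01 ± 0.53, 1.64 ± 0.27 and 2.84 ± 0.44 times. These 5 genes that passed were named after their values had been seen. Further genes under the limit on at least 1 array were Aspm, Cep55, Cenpi, Cenpl, Cenpm, Cenpn, Dlgap5, Ect2, Fbxo5, Haus1, Hmgb2, Melk, Mis18a, Sgo1, Sgo2a, Spag5, Tacc3 and Bora. Some of these came close, such as Fbxo5, an inhibitor of the anaphase-promoting complex, with 3.86, 2.67 and 0.877 times the limit. Fbxo5 was called above the limit by limma (adjusted p = 0.0422). Fbxo5, Cenpm, Kif15 and Spc25, shown by probe sets of U74Bv2, missed on replicate 3 alone, the array with the high limit.

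Genes that control the mitotic ones were mostly present. The share to set beside each count is that of all genes, 62.0%. All 17 measured genes of the anaphase-promoting complex and its partners passed, among them Anapc5 at 42.5 ± 6.7 times the limit (SD, n = 3). Ube2c and Ube2s of this list also stand among the other mitotic genes. Of the DREAM, MuvB and E2F regulators 20 of 21 passed (95.2%), all but Lin54, which likewise missed on replicate 3 of U74Bv2 alone. Rbbp4 lay at 34.8 ± 4.6 times, and Tfdp1 at 23.0 ± 6.6 times with a probe set of suffix r. E2f4, a repressive E2F of resting cells, lay at 11.9 ± 4.9 times the limit of U74Bv2. CDK inhibitors and related genes passed in 16 of 19 cases (84.2%), among them Cdkn1a, p21, at 52.4 ± 10.6 times and Gadd45a at 40.0 ± 7.2 times. Cdkn2a, Cdkn2b and Ccnd2 did not. Genes of DNA replication and S phase passed in 44 of 56 cases (78.6%). By the probe sets of U74Av2, 37 of 50 did (74%), against 66.6% of all genes there. Pcna, the sliding clamp of replication, lay at 14.4 ± 3.9 times. Mcm6, Orc1, Orc2, Gmnn, Gins2, Dbf4, Cdc7, Rfc4, Prim1, Pole2, Tyms and Dut did not pass.

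**Figure D5:**
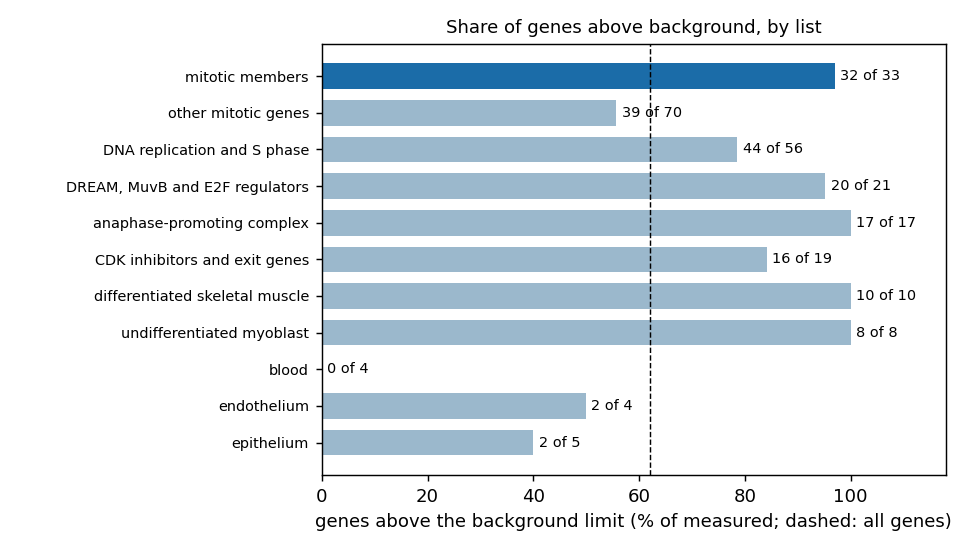
Percent of the measured genes of each list above the background limit on all 3 arrays of a design, with counts beside the bars. The dashed line marks all genes (62.0%). The 33 members stand at 32 of 33, the other mitotic genes at 39 of 70. Members and lists were chosen with earlier results of these data known.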

How the data were processed

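Per the submitters' processing notes, the deposited values are MAS5 signal intensity per probe set. Version and settings are not given in these sources. The deposited intensity had a 2% trimmed mean between 1500.3 and 1501 on every array. The instrument files supplied chip type, which matched the labels on all 9 arrays, and fluidics station. Controls entered no count. A gene was above the limit when at least 1 probe set lay above it on all 3 arrays, and is shown by the probe set with the highest mean log2 multiple. limma 3.58.1 (R 4.3.3) was fitted per design to log2(signal / limit) of all probe sets, intercept only, two-sided, with Benjamini-Hochberg adjustment at 0.05. Its test on simulated data drew noise independently for each probe set. The limit shared by the probe sets of an array was left out there, so that test does not cover it. On U74Bv2 limma used 1 spread for all probe sets (SE 0.48 on the log2 scale). The limit enters every multiple of its array, so the p-values include its spread, from 430 to 963 on U74Bv2. The number of arrays limits the precision. No identical arrays were found. Symbols came from the platform annotation and promoter windows from RefSeq. All 33 members are named, and of each other list the genes not above the limit and up to 3 with the highest multiples. Members and lists were chosen with earlier results of these data known. Python 3.11.15, numpy 2.4.6 and pandas 2.3.3 served for the rest.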

Additional observations from a re-analysis of the deposited data

How the results depend on the processing

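Without replicate 1, 2 or 3, between 97.0% and 100% of the members were above the limit and 28 to 30 were called by limma. The limma count on U74Bv2, 4 with all arrays, ran from 2 to 7, and blood markers from 0 to 25.0%. The median SD of log2 signal over the 2 arrays left ran from 0.0954 to 0.273 on U74Bv2 and from 0.0734 to 0.386 on U74Cv2. Keeping all control families gave 33.3% of members, 14.3% of other mitotic genes, 14.3% of S phase genes, 19.0% of DREAM and E2F regulators, 52.9% of anaphase-promoting complex genes, 52.6% of CDK inhibitors and exit genes, 50% of myoblast markers, and 0% of endothelial and epithelial markers. Member probe sets above that limit were 10, 1 and 0 on U74Av2, U74Bv2 and U74Cv2, and by limma 6, 0 and 0 (6 genes). Requiring every probe set gave 57.6% of members, 34.3% of other mitotic genes, 37.5% of S phase genes, 25.0% of endothelial and 20% of epithelial markers. With the array median as the limit, limma called 19 member probe sets on U74Av2, endothelial markers fell to 0% and the median multiple was 2.30. Taking the median of all probe sets per gene, it was 2.45. Blood markers reached 25.0% with 2 of 3 arrays required, and epithelial markers 20% on U74Av2 alone. With all member probe sets the median SD on U74Bv2 was 0.412. The other 170 values of these counts and medians stayed within 1.5 times, or within 1 SD, of the main value. The causes were not tested. No paired analysis was possible because the designs carry different probe sets and no result compares them.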

Other observations

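Genes of DNA replication and S phase, the nearest neighbours of the mitotic genes in the cycle, had another pattern of CHR and E2F letters. CCAAT was frequent in them too. Of 47 with a window, 10 held the CHR letters (21.3%), about as many as all genes (21.7%), and 4 held them within 50 bases of the start (8.51%). An E2F motif, searched on both strands as TTTGGCGC or TTTCGCGC or TTTCCCGC, occurred in 18 of the 47 (38.3%), against 2.12% of all genes. It occurred in 1 of 26 mitotic members (3.85%), namely Cdk1. Other mitotic genes held the CHR letters in 36 of 59 cases (61.0%) and the E2F motif in 9 (15.3%). None of 8 differentiated muscle markers with a window held the CHR letters, and 1 of 18 CDK inhibitors and exit genes did (5.56%). Among the DREAM, MuvB and E2F regulators 7 of 18 held them (38.9%), and among genes of the anaphase-promoting complex 4 of 16 (25.0%). CCAAT occurred in 29 of the 47 S phase genes (61.7%), against 41.1% of all genes, and at least 2 copies in 18 (38.3%), against 13.3%. It occurred in 35 of 59 other mitotic genes (59.3%) and 13 of 18 CDK inhibitors and exit genes (72.2%). For the anaphase-promoting complex it was 6 of 16 (37.5%), and for the muscle markers 3 of 8 (37.5%). Presence of the letters in a window was not compared with signal.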
